A study of Homo sapiens and Mus musculus with 69 samples.

Results

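Doxycycline induction of activated NOTCH1 in the H69 cell line was followed in 6 of the 69 libraries of the series, 3 labelled H69_NOTCH1_dox (libraries 52, 53 and 54) and 3 labelled H69_NOTCH1_no_dox (libraries 49, 50 and 51). The libraries were chosen by these column labels alone, and all 20516 genes of the human table were examined, of which 13580 passed the filter on low values and were tested. H69 (NCI-H69) is an established human small cell lung cancer (SCLC) line that grows in suspension. Both groups carried a lentiviral, doxycycline-inducible vector for the NOTCH1 intracellular domain (N1ICD), were selected with an antibiotic, and differed in whether doxycycline was given. Another H69 group, H69_parental (libraries 46, 47 and 48), carried no vector and served as a reference. According to the methods of the study, the induced cells were kept in doxycycline for many weeks and only cells attached to the plate were collected. The effects of N1ICD, of doxycycline itself, of the long culture and of the selection of attached cells therefore cannot be told apart. Whether the engineered line was 1 clone or a pool is not given in the sources used here. No group of the series is labelled as H69_parental with doxycycline.

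Notch receptors are membrane proteins that are cleaved when a ligand of the Jagged or Delta-like family on a neighbouring cell binds them. The freed intracellular domain enters the nucleus, joins the DNA-binding protein RBPJ and a Mastermind-like coactivator, and switches on repressors of the HES and HEY families. Most SCLC is neuroendocrine, driven by factors such as NEUROD1, carries inhibitory Notch ligands such as DLL3, and shows little antigen presentation. Notch activity in SCLC is known to turn neuroendocrine cells into non-neuroendocrine ones, in part through REST, a repressor of neuronal genes.

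Values are log2(RPKM + 1), where RPKM is the number of reads relative to gene length and to the reads of the library, after scaling between libraries, and a difference is the mean of the 3 dox libraries minus the mean of the 3 no_dox libraries on this scale, with its standard error (SE). This scale understates the change of genes with low values. A gene was called when the Benjamini-Hochberg adjusted P value from limma over all genes tested was below 0.05 and the difference was at least 1 in size. The table holds no read counts. The steps between the lowest values put the relative depth of the 6 libraries between 0.721 and 0.856 of the median human library. The labels do not say that libraries of a group came from separate cultures, so the P values measure only the spread between these libraries. In bulk RNA, a smaller number of cells making a transcript and less of it per cell cannot be told apart.

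The libraries with doxycycline resembled each other closely (Pearson correlation across genes of 0.994) and stood far from libraries 50 and 51 (0.72 to 0.722). Library 49 stood apart within the no_dox group. Its correlation with libraries 50 and 51 was 0.975 to 0.979, against 0.992 between those 2, and its correlation with the dox libraries was 0.758. In library 49, 77 genes were at least 2 log2 units above the mean of libraries 50 and 51, which were themselves within 1 unit of each other, and 52 of the 77 were also called higher with doxycycline (21.4% of all genes were). Another 13 genes were at least 2 below in library 49, of which 3 were called lower with doxycycline. MYC was one of the 77 genes that were higher in library 49, with 6.75 in library 49, 1.35 and 1.04 in libraries 50 and 51, and 6.82 to 6.84 with doxycycline. The membrane-cytoskeleton linker MSN was another, with 7.15, 1.59 and 2.07 in libraries 49, 50 and 51 and 11.69 to 11.73 with doxycycline (a difference of 8.11, or 9.88 without library 49, 7.10 without 50 and 7.34 without 51). NOTCH1, ACTA2 and HLA-B were not raised in library 49 (0.38, 0.24 and 0.32). Other genes with large rises were above libraries 50 and 51 there, among them COL3A1 (1.86), CALD1 (3.20), FSTL1 (2.88) and CRYAB (3.71). Without library 49 the counts of higher and of lower genes in the lists described here moved by at most 2, for example from 13 to 11 higher S100 and annexin genes and from 6 to 4 higher cell-cycle genes.

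**Figure D1:**
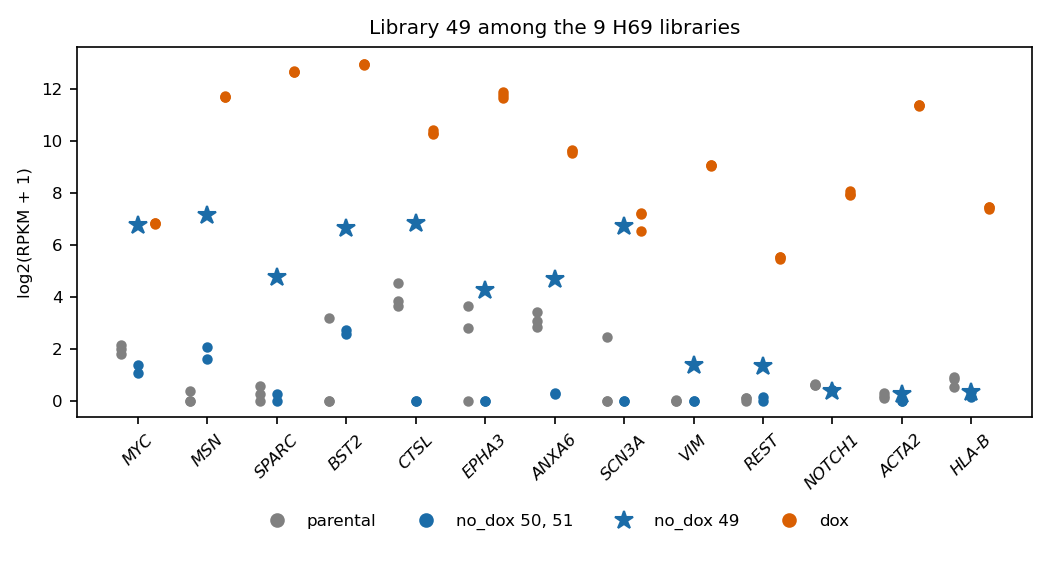
Levels, in log2(RPKM + 1) on the vertical axis, of selected genes in the 9 H69 libraries, with parental libraries in grey, no_dox in blue and dox in orange, each point a library and library 49 a star. Library 49 lies near the dox libraries for MYC (6.75) and between the groups for MSN (7.15), SPARC (4.77) and BST2 (6.64), but with the other no_dox libraries for NOTCH1 (0.38).

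The engineered cells already differed from the parental line before doxycycline, with 716 of the 13580 genes called between H69_NOTCH1_no_dox and H69_parental (5.27%). NEUROD1 was at 5.03, 4.77 and 3.32 in the parental and at 10.61, 8.88 and 8.69 in the no_dox libraries (5.02 ± 0.56, limma adjusted P = 0.00039). The antigen-presenting molecule HLA-C was lower by 3.36 ± 0.18 in no_dox than in parental cells. The no_dox cells kept INSM1, SYP and CHGA at levels near those of the parental line, so these 3 neuroendocrine markers bore out the labelled cell type.

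With doxycycline, 5675 of 13580 genes (41.8%) were called, 2904 higher (21.4%) and 2771 lower (20.4%), while the median difference over all genes tested was 0.08. Counts in the gene lists below are read beside these shares, and a list near them is not set apart from other genes. The groups did not overlap for 83.4% of the genes tested. A total of 1200 genes differed by at least 3 log2 units and 334 by at least 5, of which 167 were higher and 167 lower. There were 85 genes below 1 in every no_dox library and at or above 5 in every dox library, of which 72 were also below 1 in every parental library. The reverse switch was seen for 93 genes, of which 74 were at or above 5 in every parental library too. Without library 49 the count was 5853 (43.1%), with 3033 higher (22.3%) and 2820 lower (20.8%).

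**Figure D2:**
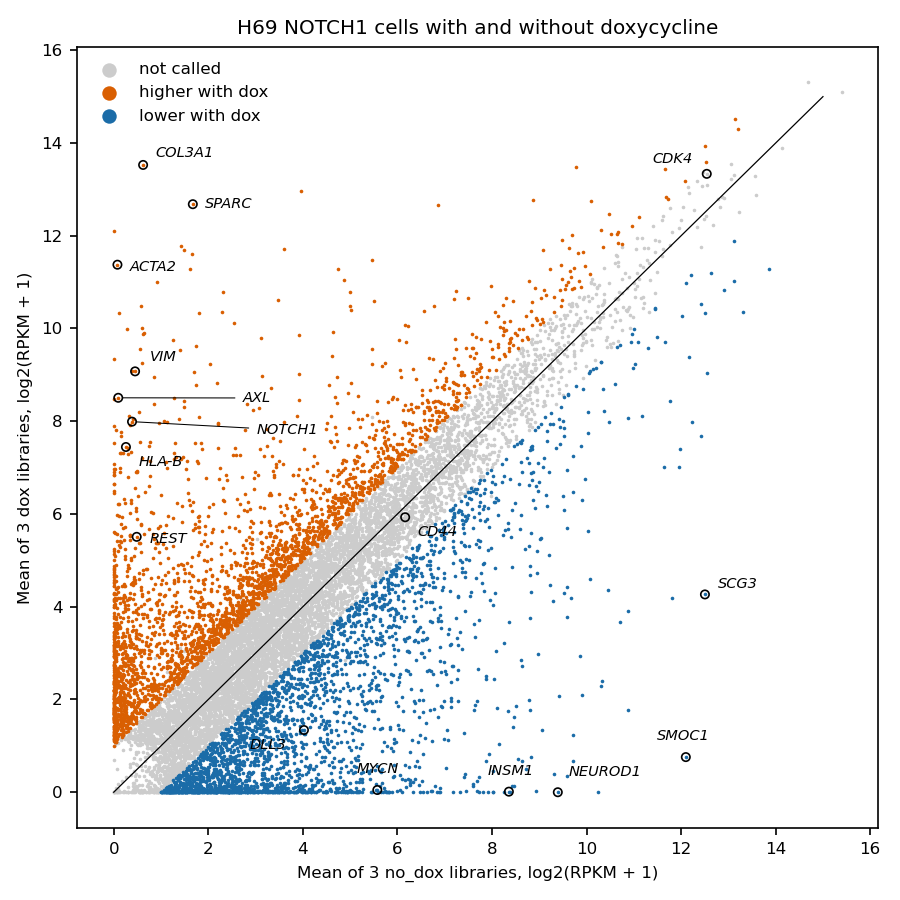
Mean of the 3 no_dox libraries (horizontal axis) against the mean of the 3 dox libraries (vertical axis), both in log2(RPKM + 1), for the 13580 genes tested, with genes called higher in orange, called lower in blue and not called in grey and some genes named. COL3A1, ACTA2 and SPARC lie near the top of the left edge, NEUROD1, INSM1 and SMOC1 near the bottom edge, and CD44 close to the diagonal.

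NOTCH1 itself (GRCh37 chr9:139388885-139440500, minus strand, a protein-coding gene) was at 0.38, 0.39 and 0.39 without and 8.07, 7.93 and 7.97 with doxycycline (7.60 ± 0.06, limma adjusted P = 5.9e-12). All 3 dox libraries stood far above the others, as their labels say. The table has 1 row for the gene, so reads from the vector and from the chromosomal copy cannot be told apart. Of the other receptors, NOTCH3 went from 0.42, 0.73 and 0.66 to 9.36, 9.21 and 9.19 (8.65 ± 0.09). NOTCH2 went from 2.19, 1.80 and 1.66 to 4.62, 4.61 and 4.53 (2.70 ± 0.14). The groups did not overlap for either receptor. NOTCH4, at 0.47 to 0.58 in all 6 libraries, was too low to be tested.

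Of the 7 ligands, 1 was higher and 6 were lower. JAG1, an activating ligand, went from 4.01, 3.76 and 3.98 to 9.03, 9.00 and 9.02 (5.10 ± 0.07). DLL3, which inhibits Notch from inside the same cell, went from 4.28, 3.96 and 3.83 to 1.27, 1.25 and 1.50 (-2.68 ± 0.12, limma adjusted P = 1e-07). The groups of both genes were well separated. JAG2 (-3.45 ± 0.07), DLL4 (-3.25 ± 0.19), DLK2 (-1.94 ± 0.14) and DLL1 (-1.66 ± 0.33) were also lower. DLK1, a non-canonical ligand that is also imprinted, was at 7.79, 8.38 and 8.60 without doxycycline, was listed at 0 in all 3 dox libraries, and was called lower.

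Among 29 genes of receptor processing and the nuclear complex, 2 were higher, 6 lower and 21 not called, with a median of -0.03. The share lower was near the 20.4% of all genes tested, and the share higher was below 21.4%. RBPJ, the DNA-binding partner of N1ICD, went from 4.11, 3.84 and 4.10 to 2.71, 2.86 and 2.87 (-1.20 ± 0.10). The coactivator MAML3 was lower by a larger amount (6.12, 6.40 and 6.61 against 2.00, 1.82 and 1.94, a difference of -4.46 ± 0.12), whereas MAML1 (-0.37 ± 0.08) and MAML2 (0.18 ± 0.08) were not called. The ubiquitin ligase MIB1, which acts on ligands in the signal-sending cell, was lower (-2.05 ± 0.08), as were the fringe glycosyltransferases LFNG (-1.06 ± 0.13) and MFNG (-1.23 ± 0.08) and the gamma-secretase subunit APH1B (-1.47 ± 0.12). LFNG was not called without library 50 (-0.99) or 51 (-0.96). DTX4 (2.53 ± 0.10) and PSEN2 (1.48 ± 0.13) were higher, but PSEN2 was not called against the parental libraries (0.66).

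Of 14 Notch target genes tested, 7 were higher, 4 lower and 3 not called (median 0.78). HEYL went from 0.54, 0.13 and 0.01 to 6.27, 6.24 and 6.21 (6.01 ± 0.12). HES5 went from 0.28, 0.52 and 0.29 to 5.11, 4.96 and 4.96 (4.65 ± 0.11). The feedback inhibitor NRARP went from 3.81, 3.63 and 3.37 to 8.05, 7.97 and 7.95 (4.39 ± 0.11). In each of the 3, every dox library was above every other H69 library. HES4 (2.28 ± 0.09), HEY1 (2.00 ± 0.12), HEY2 (1.38 ± 0.09) and HES7 (1.05 ± 0.30, adjusted P = 0.011) differed less, and HES7 was not called without library 50 (0.84) or 51 (0.83). HES1, often taken as the standard Notch target, was at 3.62, 2.93 and 3.27 without and 3.76, 3.82 and 3.79 with doxycycline, a difference of 0.52 ± 0.16 (limma adjusted P = 0.015) that was below the size needed for a call, and the parental libraries averaged 4.2. HES6, a neural-type HES factor that opposes HES1, was lower (-3.64 ± 0.09), as were BHLHE40 (-3.46 ± 0.30), BHLHE41 (-2.43 ± 0.13) and SOX9 (-1.87 ± 0.13), although BHLHE41 with doxycycline was 0.90 above the parental libraries.

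The promoters of 4 of these targets are shown because they hold the letters that RBPJ is known to bind, here taken as TGGGAA or its reverse complement TTCCCA (capitals), and because HES1, not called, can be read beside 3 called targets. Each run is the 250 bases before the RefSeq start of the gene in GRCh38.p14, read 5′ to 3′ on the strand of the gene, namely HES5 at chr1:2530264-2530513 (minus), HEYL at chr1:39639644-39639893 (minus), HES4 at chr1:1000098-1000347 (minus) and HES1 at chr3:194135898-194136147 (plus).
HES5: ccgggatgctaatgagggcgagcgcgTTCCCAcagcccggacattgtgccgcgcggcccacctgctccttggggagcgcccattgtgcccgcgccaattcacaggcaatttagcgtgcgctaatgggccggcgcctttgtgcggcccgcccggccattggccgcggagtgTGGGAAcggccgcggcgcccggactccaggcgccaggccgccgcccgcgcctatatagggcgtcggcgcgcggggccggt
HEYL: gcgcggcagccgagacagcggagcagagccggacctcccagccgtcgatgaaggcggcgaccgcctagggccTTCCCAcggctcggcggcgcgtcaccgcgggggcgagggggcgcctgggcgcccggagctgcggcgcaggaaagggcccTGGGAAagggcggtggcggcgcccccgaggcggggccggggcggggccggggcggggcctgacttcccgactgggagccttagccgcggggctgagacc
HES4: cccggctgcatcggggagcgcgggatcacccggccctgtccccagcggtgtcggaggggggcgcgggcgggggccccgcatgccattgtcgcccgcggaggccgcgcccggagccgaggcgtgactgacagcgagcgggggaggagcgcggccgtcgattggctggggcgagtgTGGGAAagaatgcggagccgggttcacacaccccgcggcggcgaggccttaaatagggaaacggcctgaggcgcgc
HES1: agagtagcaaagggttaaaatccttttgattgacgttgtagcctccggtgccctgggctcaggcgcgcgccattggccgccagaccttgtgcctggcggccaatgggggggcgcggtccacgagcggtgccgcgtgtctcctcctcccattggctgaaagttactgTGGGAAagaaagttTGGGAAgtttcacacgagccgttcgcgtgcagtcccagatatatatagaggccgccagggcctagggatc
The matches began 224 and 80 bases before the start of HES5, 178 and 99 before HEYL, 76 before HES4, and 84 and 70 before HES1. On either strand these 6 letters were present in 7 of the 14 listed target genes for which a RefSeq promoter was found, which are not the same 14 as those tested. Of the other targets named above, HEY2 (called higher) and BHLHE41 (called lower) held a match. NRARP and HES7 (called higher) and HES6 and BHLHE40 (called lower) held none. A gene counts here when any 1 of its promoters of this length holds the letters, which was so for 24.6% of all 27305 genes with such a promoter, 26.9% of genes called higher and 24.2% of genes called lower. A match is a description of the letters and not evidence of binding.

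Neuroendocrine regulators were lower. Of 28 such transcription factors tested, 24 were lower, none was higher and 4 were not called (median -3.90). INSM1, a zinc-finger factor of neuroendocrine cells, went from 8.40, 8.26 and 8.41 to 0.00, 0.00 and 0.04 (-8.34 ± 0.08, limma adjusted P = 1.7e-11). NEUROD1, at 10.61, 8.88 and 8.69 without doxycycline, was listed at 0 in all 3 dox libraries and was called lower. ST18 (5.27, 5.92 and 6.07) and NEUROD4 (5.64, 5.72 and 5.98) were likewise listed at 0 with doxycycline. In all 4 genes the groups were wholly separate. The pioneer factors FOXA1 (-3.92 ± 0.14) and FOXA2 (-4.81 ± 0.12), the stem cell factor SOX2 (-3.87 ± 0.10), ISL1 (-3.82 ± 0.13) and the brain and lung factor NKX2-1 (-2.36 ± 0.14) were lower as well. POU4F1 (0.43 ± 0.07), TCF4 (-0.82 ± 0.06) and RUNX1T1 (-0.15 ± 0.09) were not called.

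Of 42 neuroendocrine effector genes tested, 36 were lower, none was higher and 6 were not called (median -3.49). The granin SCG3, a protein of secretory granules, went from 12.53, 12.48 and 12.50 to 4.12, 4.09 and 4.59 (-8.24 ± 0.13). CHGA went from 5.83, 6.27 and 6.42 to 0.03, 0.05 and 0.25 (-6.06 ± 0.17) and CHGB fell by 7.09 ± 0.18. The synaptic vesicle protein SYP went from 5.57, 5.78 and 5.64 to 1.96, 2.16 and 2.13 (-3.58 ± 0.08, limma adjusted P = 1.7e-09), so that some remained in every dox library. The largest falls in the list were those of the tubulin-binding STMN2 (-8.92 ± 0.15), the prohormone convertase PCSK2 (-8.33 ± 0.08) and SCG3, while the vesicle sensor SYT4, at 7.74 to 8.10 without doxycycline, was listed at 0 with it. NCAM1, the CD56 surface antigen, was lower by a smaller amount (6.40, 6.40 and 6.49 against 3.30, 3.19 and 3.26). CPE (0.13 ± 0.07), SV2A (-0.17 ± 0.06), SYT11 (-0.60 ± 0.08), VAMP2 (-0.79 ± 0.11), CAMK2B (-0.94 ± 0.07) and CHRNA5 (-0.98 ± 0.09) were not called, and the last 2 were called without library 49, CHRNA5 also without library 51 or 53.

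Ion channel genes, which set the excitability of neuroendocrine cells, were mostly lower. Of 22 ion channel genes tested, 17 were lower, 3 were higher and 2 were not called (median -1.64). The calcium channel CACNA1A went from 8.09, 8.46 and 8.48 to 1.55, 1.94 and 1.75 (-6.60 ± 0.13). CACNA1D, at 7.33, 6.99 and 7.23, was listed at 0 with doxycycline. The potassium channel KCNC1 was lower (-7.34 ± 0.35). The calcium-activated potassium channel KCNN3 (2.10 ± 0.08) and the sodium channels SCN2A (1.32 ± 0.12) and SCN3A were higher, the last with 6.75, 0.00 and 0.00 without and 7.21, 7.23 and 6.54 with doxycycline, so that library 49 sat with the dox group. Its call was lost without any 1 of the other 5 libraries (adjusted P = 0.0502 to 0.0932).

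REST went from 1.34, 0.00 and 0.12 to 5.54, 5.46 and 5.52 (5.02 ± 0.30, limma adjusted P = 5.8e-07), and without library 49 the difference was 5.45. The dox libraries were above every other library. Its partners moved less, with HDAC1 (1.05 ± 0.08) among those higher, RCOR2 (-2.59 ± 0.14) and PHF21A (-1.02 ± 0.06) lower, and 7 of 12 not called. The share called was near the 41.8% of all genes tested. HDAC1 and PHF21A fell just short of a call without library 51 (0.999 and -0.993). The corepressor RCOR1 (0.00 ± 0.06) and the histone demethylase KDM1A (0.09 ± 0.07), the LSD1 enzyme of the REST complex, were among those not called.

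**Figure D3:**
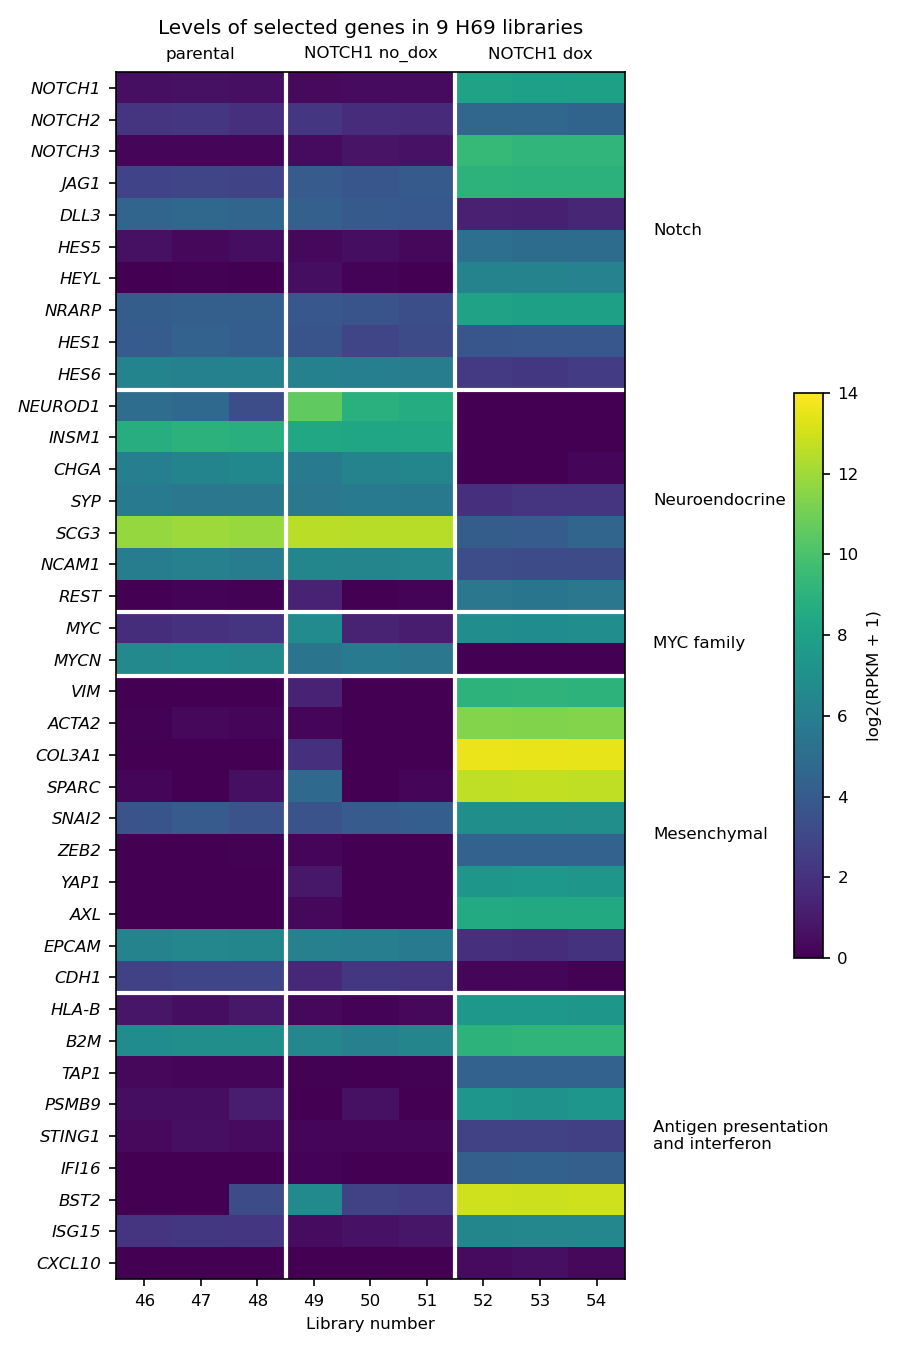
Levels of selected genes (rows, in labelled groups) in the 9 H69 libraries (columns), coloured from 0 to 14 in log2(RPKM + 1). The parental and no_dox columns look alike except for genes such as NEUROD1 (3.32 to 5.03 against 8.69 to 10.61) and for parts of library 49, and the 3 dox columns differ from both in every group of genes. SPARC was at 4.77 in library 49, against 0.00 to 0.56 in the parental and 0.00 and 0.25 in the other no_dox columns.

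Within the MYC family, MYCN and MYC moved in opposite directions. MYCN went from 5.39, 5.76 and 5.57 to 0.04, 0.05 and 0.05 (-5.53 ± 0.10, limma adjusted P = 4.1e-10), with no overlap. Its antisense neighbour MYCNOS, which shares sequence with it so that the rows may share reads, was at 4.86, 5.95 and 5.97 and listed at 0 with doxycycline. The genes next to MYCN on chromosome 2, which were looked at after the values were seen, did not go down with it. DDX1 went from 4.35, 4.10 and 4.23 to 6.17, 6.25 and 6.20 (1.98 ± 0.07) and NBAS from 3.78, 3.42 and 3.71 to 5.04, 5.04 and 5.16 (1.44 ± 0.10). MYC was higher by 3.78 ± 1.29 (limma adjusted P = 0.023), and by 5.63 without library 49, which held MYC at the level of the dox libraries. This call rested on which libraries were fitted, since the adjusted P value was 0.0544 in a fit of the 6 libraries alone, 0.0803 without library 50, 0.0823 without library 51 and 0.0536 to 0.0558 without any 1 of the dox libraries. Of the other 7 tested members, MXD3, an antagonist of MYC, was lower (-2.19 ± 0.12), and MAX, MGA, MXI1, MNT, MXD1 and MXD4 were not called (differences of -0.91 to 0.49, with MXD1 called at -1.03 without library 50). MYCL stayed at or below 1.24 in all 6 libraries and was not tested.

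Contractile, matrix and other mesenchymal genes made up most of the largest rises. Of 43 mesenchymal genes tested, 38 were higher, none was lower and 5 were not called (median 4.15). The smooth muscle actin ACTA2 went from 0.24, 0.00 and 0.00 to 11.38, 11.35 and 11.39 (11.30 ± 0.08, limma adjusted P = 5.9e-12). VIM went from 1.36, 0.00 and 0.00 to 9.06, 9.09 and 9.08 (8.62 ± 0.32, adjusted P = 2.7e-08). The matrix glycoprotein SPARC went from 4.77, 0.00 and 0.25 to 12.68, 12.69 and 12.67 (11.01 ± 1.08, with 12.56 without library 49, 10.17 without 50 and 10.30 without 51). In all 3 genes the dox libraries lay close together and far above the others. The actin-binding CALD1 (9.67 ± 0.55), the enteric smooth muscle actin ACTG2 (10.23 ± 0.08) and FSTL1 (10.21 ± 0.49) were among the 12 largest rises over all genes, as were the ephrin receptor EPHA3 (10.37 ± 1.25) and the small heat-shock protein CRYAB (9.94 ± 0.73). Without library 49 the differences were 10.46 for CALD1, 10.90 for FSTL1, 11.79 for EPHA3 and 10.97 for CRYAB. EPHA3 was at 4.25 in library 49 and listed at 0 in libraries 50 and 51, and its difference was 9.67 without either of these, and that of CRYAB was 9.28 without library 51. In the parental libraries EPHA3 was at 3.65, 2.79 and 0.00. CAV1, the caveolar coat protein, was listed at 0 in all no_dox libraries and was at 6.80, 6.84 and 6.86 with doxycycline. CD44 was not called (6.38, 5.93 and 6.19 against 5.87, 5.97 and 5.95, a difference of -0.23 ± 0.13, adjusted P = 0.13), and it was already higher in no_dox than in parental cells by 1.16. LOX (-0.06 ± 0.14), S100A6 (-0.66 ± 0.16), PLAUR (0.81 ± 0.07) and TIMP2 (0.90 ± 0.18) were not called. NT5E and TNC lost their calls without library 49 (0.995 and 0.74), and TIMP2 gained one without library 50 (1.04).

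Of 16 collagen genes tested, 13 were higher and 1 was lower (median 6.42). COL3A1 had the largest difference of all genes, from 1.86, 0.00 and 0.00 to 13.56, 13.52 and 13.50 (12.91 ± 0.43, and 13.53 without library 49), and COL1A1 went from 0.84, 1.17 and 0.74 to 11.09, 10.97 and 10.97 (10.10 ± 0.11). The basement membrane chains COL4A1 (9.70 ± 0.20) and COL4A2 (8.99 ± 0.39), which lie side by side in the genome, were higher together. COL1A2, the partner chain of COL1A1, behaved otherwise. It was at 6.52, 7.21 and 7.20 without and 7.64, 7.59 and 7.58 with doxycycline (0.63 ± 0.17, not called), after a difference of 3.32 between no_dox and parental cells. COL7A1 was lower (-1.06 ± 0.23), but not called without library 50 (-0.93), 51 (-0.89) or 53 (-0.998), nor against the parental libraries (-0.16).

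Among 14 integrin subunits, 10 were higher and 4 lower. The fibronectin receptor chain ITGA5 went from 5.13, 4.62 and 5.23 to 10.82, 10.78 and 10.77 (5.80 ± 0.27), and FN1, its ligand, from 0.41, 0.02 and 0.06 to 7.77, 7.76 and 7.76 (7.60 ± 0.11). ITGA1 (5.51 ± 0.06), ITGA4 (5.32 ± 0.30) and ITGA7 (3.90 ± 0.16) were also higher. The epithelial laminin receptor chain ITGA6 (-2.24 ± 0.08), ITGA2 (-1.56 ± 0.24), ITGA10 (-1.35 ± 0.30) and ITGB8 (-1.28 ± 0.09) were lower. Against the parental libraries ITGA2 was instead higher with doxycycline, by 2.31, and ITGB8 was not called (-0.64). Since attachment to the plate was the criterion for collection, the part of collection in these values was not tested.

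Of 13 tested regulators of the epithelial to mesenchymal transition (EMT), 5 were higher, 3 lower and 5 not called. The 5 that were higher are known to promote the transition, and the 3 that were lower are known for roles in epithelial cells. FOXC1 went from 0.38, 0.29 and 0.35 to 5.47, 5.38 and 5.49 (5.10 ± 0.07). ZEB2 (4.33 ± 0.07), SNAI2 (3.04 ± 0.17) and PRRX2 (3.08 ± 0.30) were higher, and PRRX1, listed at 0 without doxycycline, was at 4.73, 4.80 and 4.84 with it. SNAI1 (-0.48 ± 0.30), TWIST1 (0.35 ± 0.10), TCF3 (0.28 ± 0.06) and ZEB1 (0.86 ± 0.22, and called at 1.13 without library 49) were not called. The epithelial splicing regulator ESRP1 went from 9.57, 9.83 and 9.75 to 0.84, 1.73 and 1.11 (-8.49 ± 0.20), and OVOL1 and OVOL2, which hold cells in the epithelial state, were at 2.44 to 2.79 and 3.49 to 3.81 and were both listed at 0 with doxycycline.

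Of 20 epithelial genes tested, 15 were lower, 4 higher and 1 not called (median -3.29). The adhesion molecule EPCAM went from 6.10, 5.97 and 5.84 to 1.96, 1.85 and 2.04 (-4.02 ± 0.09), and E-cadherin (CDH1) from 1.55, 2.29 and 2.16 to 0.23, 0.17 and 0.07 (-1.84 ± 0.17). The protease inhibitor SPINT2 (-6.09 ± 0.09), the protease ST14 (-4.95 ± 0.13), CLDN3 (-4.94 ± 0.13) and KRT19 (-5.58 ± 0.11) fell the most. P-cadherin (CDH3) moved against the list, from 0.40, 0.31 and 0.35 to 4.15, 4.18 and 4.22 (3.83 ± 0.06), as did the simple-epithelium keratins KRT18 (2.67 ± 0.09) and KRT8 (1.87 ± 0.10) and the junction protein TJP1 (1.05 ± 0.09, and 0.96 without library 49, no longer called). Among keratins as a whole, 8 were higher and 2 lower of 12 tested. The basal-cell keratins KRT17 (6.93 ± 0.12) and KRT5 (5.65 ± 0.25) rose the most, while the basal keratin KRT15, at 4.61 to 5.45 without doxycycline, was listed at 0 with it. TP63, which marks basal cells of the airway, was at 0.06 to 0.10 in all 6 libraries.

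The host RNA of 2 smooth muscle microRNAs was among the largest rises. MIR143HG, whose row corresponds to the long non-coding gene now named CARMN (GRCh37 chr5:148786252-148812398, plus strand), was listed at 0 in all 6 parental and no_dox libraries and was at 12.18, 11.99 and 12.12 with doxycycline. MIR145, a row that lies within that RNA, went from 0.81, 0.92 and 0.00 to 10.57, 10.25 and 10.61 (9.90 ± 0.22), and MIR143 was listed at 0 in all 9 H69 libraries. Poly(A) libraries do not measure mature microRNAs, so these rows may hold reads of the host RNA. IL17B (GRCh37 chr5:148750887-148783765, minus strand), which starts beside the host gene and runs the other way without overlapping it, was also listed at 0 without doxycycline and was at 9.41, 9.31 and 9.28 with it. The mature sequences that the host RNA encodes are shown for reference, from RefSeq (GRCh38.p14), with the seed (bases 2 to 8) in capitals.
miR-143-3p: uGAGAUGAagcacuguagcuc
miR-145-5p: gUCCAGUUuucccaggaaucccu
They lie at chr5:149428978-149428998 and chr5:149430661-149430683 on the plus strand and do not share a seed.

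YAP1, a coactivator that is absent from most neuroendocrine SCLC, went from 0.92, 0.00 and 0.00 to 7.39, 7.46 and 7.43 (7.12 ± 0.22, limma adjusted P = 9.5e-09). It was part of a wider pattern among the partners and targets of YAP1 and the TEAD DNA-binding factors, with 16 higher, 2 lower and 4 not called of 22 tested (median 3.17). The matricellular gene CTGF (now CCN2) went from 0.39, 0.00 and 0.08 to 7.72, 7.73 and 7.62 (7.54 ± 0.10) and CYR61 (now CCN1) from 0.73, 0.27 and 0.41 to 6.98, 6.86 and 6.87 (6.43 ± 0.12). The paralogue WWTR1 (3.08 ± 0.06), TEAD2 (4.21 ± 0.11) and TEAD3 (4.69 ± 0.18) were higher, TEAD1 (-0.11 ± 0.10) was not called, and CRIM1 (6.38 ± 0.41) was among the largest rises. FJX1 (-2.40 ± 0.09) and AMOTL1 (-1.88 ± 0.09) were lower.

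The CCN2 promoter (GRCh38.p14 chr6:131951373-131951622, minus strand, 250 bases before the start, 5′ to 3′) is shown because it holds the letters GGAATG, the core that TEAD factors are known to bind, at 3 places (capitals), beginning 169, 104 and 95 bases before the start.
CCN2: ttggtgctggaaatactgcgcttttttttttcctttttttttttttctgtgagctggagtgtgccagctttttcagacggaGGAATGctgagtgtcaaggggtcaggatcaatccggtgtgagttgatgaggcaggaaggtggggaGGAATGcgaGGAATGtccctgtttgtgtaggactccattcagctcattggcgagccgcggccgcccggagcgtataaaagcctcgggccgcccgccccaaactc
On either strand (GGAATG or CATTCC) this core was present in at least 1 promoter of 9 of the 18 genes of the YAP1 and TEAD list that had any, of 14.3% of all genes with a promoter of this length, of 16.2% of genes called higher and of 12.5% of genes called lower.

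Receptor tyrosine kinases and their ligands split, with 12 higher, 4 lower and 11 not called of 27 tested. AXL went from 0.29, 0.00 and 0.00 to 8.54, 8.48 and 8.50 (8.41 ± 0.08, limma adjusted P = 1.8e-11) and its ligand GAS6 from 0.77, 0.58 and 0.94 to 1.91, 2.00 and 1.89 (1.17 ± 0.10). Against the parental libraries the difference of GAS6 was 0.07 and not called (adjusted P = 0.53). The pericyte and fibroblast receptor PDGFRB (6.09 ± 0.06) and the collagen receptor DDR2 (6.53 ± 0.14) were higher, although DDR2 in the parental libraries (mean 8.2) lay between the no_dox (4.42 to 5.02) and dox (11.26 to 11.30) values. KIT, which many neuroendocrine tumours carry, went from 4.02, 3.92 and 3.85 to 0.04, 0.00 and 0.04 (-3.91 ± 0.08), and ROR2 (-2.52 ± 0.14) and IGF2 (-3.97 ± 0.28) were lower. MET was not called (-0.96 ± 0.06), but was called lower against the parental libraries (-2.87). EGFR stayed at or below 0.19 in all 6 libraries.

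Of 30 genes of the TGF-beta and BMP pathways tested, 11 were higher, 11 lower and 8 not called, against 21.4% higher and 20.4% lower over all genes. TGFB1 went from 3.20, 3.51 and 3.83 to 7.65, 7.58 and 7.50 (4.06 ± 0.14), and INHBA (4.81 ± 0.12), the latency protein LTBP1 (3.89 ± 0.06), TGFB3 (3.65 ± 0.08) and SMAD3 (2.09 ± 0.09) were higher. BMP7 went from 6.69, 6.36 and 6.07 to 0.44, 0.00 and 0.43 (-6.08 ± 0.18), and INHBB (-5.26 ± 0.33), BMP2 (-2.22 ± 0.20) and the BMP-responsive repressors ID2 (-3.17 ± 0.12), ID4 (-2.21 ± 0.08) and ID1 (-1.80 ± 0.14) were lower. ID3 went the other way (1.87 ± 0.16), and FST was no longer called without library 49 (-0.84).

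Of 10 AP-1 genes tested, 4 were higher and 2 lower. FOSL1 went from 1.25, 1.79 and 0.78 to 7.20, 7.17 and 7.22 (5.92 ± 0.25), FOSL2 (2.77 ± 0.19), BATF3 (1.54 ± 0.16) and JUNB (1.13 ± 0.10) were higher, MAFF was lower (-1.80 ± 0.14), and the fall of JUN (-1.13 ± 0.19) was no longer called without library 49 (-0.95). Among proteases and their inhibitors, 12 were higher and 6 lower of 22. ADAM19 (6.65 ± 0.14) and the membrane collagenase MMP14 (5.86 ± 0.08) rose the most, whereas the gelatinase MMP2 went from 4.22, 5.55 and 5.42 to 1.09, 1.08 and 1.23 (-3.93 ± 0.30). Of 19 S100 and annexin genes tested, 13 were higher and 1, S100A14, was lower (-3.06 ± 0.10). S100A4 went from 1.99, 2.39 and 2.23 to 7.96, 7.93 and 7.93 (5.74 ± 0.10).

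RNA of the genes of MHC class I antigen presentation, through which tumour peptides reach CD8 T cells, was higher across the pathway. Of 21 genes tested, 17 were higher, 1 was lower and 3 were not called (median 1.90). The list averaged 3.63 to 3.76 in the parental, 3.08 to 3.22 in the no_dox and 5.58 to 5.63 in the dox libraries. Presentation at the cell surface was not measured here. HLA-B went from 0.32, 0.13 and 0.33 to 7.47, 7.47 and 7.39 (7.19 ± 0.11, limma adjusted P = 1.7e-10), and B2M, the invariant light chain, from 6.50, 6.12 and 6.39 to 9.05, 9.14 and 9.16 (2.78 ± 0.10, adjusted P = 1.8e-08). The dox libraries were above every parental and no_dox library for both. The peptide transporter TAP1 went from 0.07, 0.02 and 0.07 to 4.38, 4.40 and 4.40 (4.34 ± 0.05) and TAP2 rose by 3.59 ± 0.06. The immunoproteasome subunit PSMB9 went from 0.00, 0.61 and 0.00 to 7.38, 7.21 and 7.36 (7.11 ± 0.21), and PSMB8 was listed at 0 without and was at 4.80, 4.74 and 4.73 with doxycycline. NLRC5, the transactivator of class I genes, went from 0.01, 0.00 and 0.00 to 2.68, 2.53 and 2.71 (2.64 ± 0.06). HLA-C was higher by 5.75 ± 0.18 over no_dox cells, which held less of it than the parental line (1.13 to 1.88 against 4.62 to 4.90), and HLA-E by 4.82 ± 0.19. TAPBPL, a tapasin-like peptide editor, was lower (-1.90 ± 0.18), IRF1 (0.29 ± 0.12), ERAP1 (0.80 ± 0.17) and CANX (-0.50 ± 0.09) were not called, and TAPBP lost its call without library 49 (0.94) and against the parental libraries (0.31). Class I genes are close paralogues, so reads may be shared among their rows.

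Class II genes rose in part. Of 7 tested, 5 were higher and 2 not called. HLA-DPB1 went from 1.29, 0.23 and 0.20 to 4.41, 4.50 and 4.36 (3.85 ± 0.26), HLA-DPA1 was listed at 0 without and was at 4.25, 3.07 and 4.07 with doxycycline, and HLA-DMA (2.49 ± 0.14), CTSS (1.94 ± 0.18) and RFXANK (1.72 ± 0.08) were higher. The class II master regulator CIITA (at most 0.19), CD74 (at most 0.51) and HLA-DRA (listed at 0) stayed low in all 6 libraries and were not tested.

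In the sensing of nucleic acids, STING1 (TMEM173 in the table), the adaptor that signals cytosolic DNA, went from 0.18, 0.19 and 0.17 to 2.75, 2.79 and 2.66 (2.55 ± 0.07, limma adjusted P = 4.7e-09), with no overlap. cGAS (MB21D1), the enzyme that makes its ligand, was at 0.10, 0.08 and 0.17 and was listed at 0 with doxycycline, too low to be tested. The kinase TBK1 (0.33 ± 0.09) and the factor IRF3 (-0.05 ± 0.08), which act below STING1, were not called. The DNA sensor IFI16 went from 0.13, 0.00 and 0.00 to 4.26, 4.33 and 4.22 (4.23 ± 0.06). The RNA sensor IFIH1 went from 2.22, 3.57 and 3.62 to 8.98, 8.95 and 8.97 (5.83 ± 0.32), after being lower in no_dox than in parental cells by 2.28. TLR3, which senses double-stranded RNA, was listed at 0 without and was at 4.57, 4.46 and 4.57 with doxycycline, while TLR4 went from 4.15, 4.29 and 4.23 to 0.11, 0.11 and 0.21 (-4.08 ± 0.07). Over the 20 genes tested, 9 were higher, 1 lower and 10 not called (median 0.74).

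Interferon-stimulated genes were higher as a list, 35 of 40 tested, with 1 lower and 4 not called (median 2.38), though 9 further members, such as IFIT3 (listed at 0 without doxycycline and at most 1.05 with it), RSAD2 (at most 0.47) and MX2 (at most 0.69), were too low to be tested. The tethering factor BST2 went from 6.64, 2.72 and 2.55 to 12.99, 12.94 and 12.97 (8.99 ± 1.19, limma adjusted P = 0.0001), and the difference was 10.33 without library 49, 8.37 without 50 and 8.28 without 51. ISG15, a ubiquitin-like modifier, went from 0.48, 0.67 and 0.86 to 6.44, 6.51 and 6.50 (5.81 ± 0.10). IFI6 (7.19 ± 0.56), IFITM3 (6.51 ± 0.21) and XAF1 (6.22 ± 0.91) were among the largest rises, with 7.91 for IFI6 and 7.53 for XAF1 without library 49 and 5.57 for XAF1 without library 50 or 51. CMPK2 was lower (-1.25 ± 0.14), and STAT2 (0.51 ± 0.07) and USP18 (-0.84 ± 0.15, and called at -1.03 without library 49) were not called. Of the interferons, IFNB1 was at 1.36 in library 49, at 0.92 in library 54 and listed at 0 in the other 4. Of 11 genes tested among interferons, their receptors and signalling genes, 4 were higher. They were the receptor chains IL10RB (1.35 ± 0.06) and IFNGR2 (1.04 ± 0.07), the kinase JAK1 (1.15 ± 0.08) and the feedback gene SOCS3 (1.12 ± 0.09, but 0.29 and not called against the parental libraries). After quantile normalization IFNGR2 was not called (0.95).

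The BST2 promoter (GRCh38.p14 chr19:17405631-17405880, minus strand, 250 bases before the start, 5′ to 3′) is shown because the core of the interferon-stimulated response element, which interferon-activated complexes are known to bind, begins 130 bases before its start (capitals). Another copy of the same letters overlaps the end of the capitals and runs on in lower case.
BST2: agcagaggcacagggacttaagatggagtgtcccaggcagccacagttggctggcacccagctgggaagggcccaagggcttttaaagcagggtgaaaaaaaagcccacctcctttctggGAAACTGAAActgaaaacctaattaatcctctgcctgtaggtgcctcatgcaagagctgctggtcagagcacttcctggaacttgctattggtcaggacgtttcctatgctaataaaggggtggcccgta
On either strand the letters in capitals were found in at least 1 promoter of 10 of 39 genes of the interferon-stimulated list, including members that were not tested, of 1 of 19 genes of the class I list, of 0.26% of all genes with a promoter of this length, of 0.365% of genes called higher and of 0.106% of genes called lower.

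**Figure D4:**
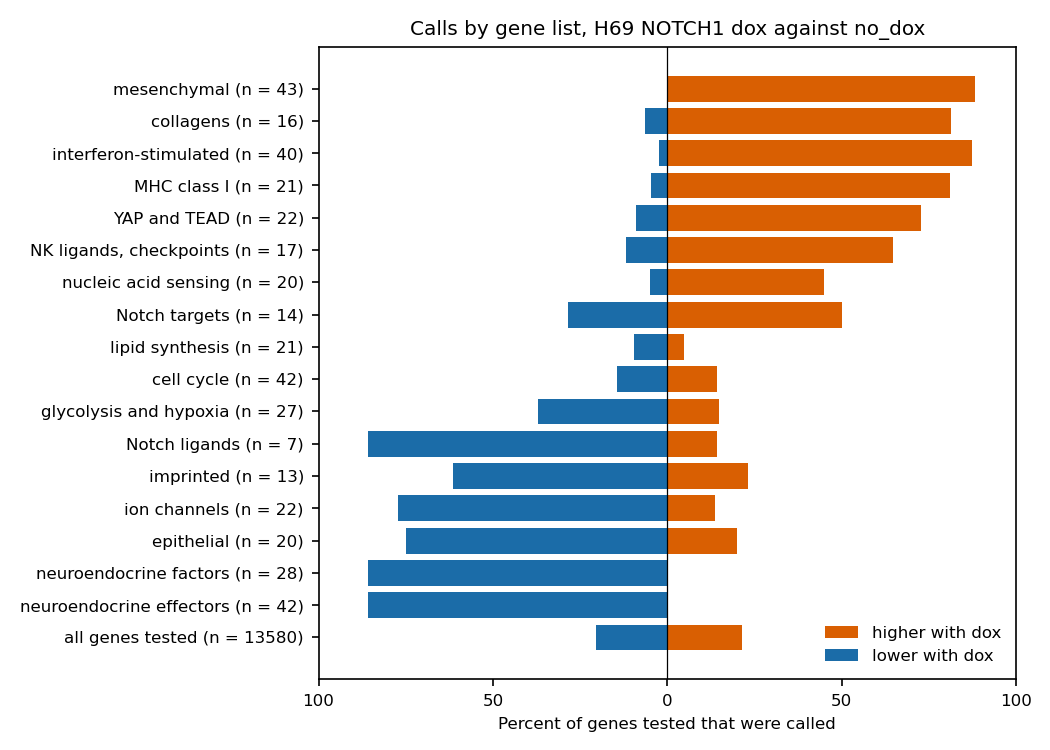
Percent of the genes tested in each of the named gene lists, and of all 13580 genes tested, that were called higher (orange, to the right) or lower (blue, to the left) with doxycycline. Neuroendocrine, epithelial and ion channel genes lie to the left and mesenchymal, collagen, class I and interferon-stimulated genes to the right, against 21.4% higher and 20.4% lower over all genes.

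Cytokines were mostly low. Of 34 chemokines and cytokines, 22 were not tested, 8 were higher and 4 were not called. CXCL12, which draws CXCR4-bearing leukocytes, was listed at 0 in every no_dox library and was at 6.93, 6.87 and 6.93 with doxycycline, and IL33 was listed at 0 and then at 3.37, 3.50 and 3.50. IL32 went from 0.98, 1.84 and 2.70 to 7.59, 7.54 and 7.48 (5.70 ± 0.39) and CSF1, a growth factor of macrophages, from 3.48, 4.05 and 4.14 to 6.86, 6.85 and 6.80 (2.95 ± 0.15). CXCL10, a T-cell chemokine induced by interferon and STING1, was listed at 0 without and was at 0.39, 0.58 and 0.32 with doxycycline, below the level needed for a test, and CCL5 was at most 0.73. CCL2 was not called (0.25 ± 0.21), but was called higher against the parental libraries (2.18).

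Ligands of natural killer (NK) cells and checkpoint molecules were higher for 11 of 17 tested, with 2 lower and 4 not called. The NKG2D ligand MICA went from 0.00, 0.03 and 0.00 to 3.35, 3.31 and 3.52 (3.38 ± 0.07) and MICB from 2.77, 3.06 and 2.86 to 4.12, 4.13 and 4.21 (1.25 ± 0.08). Both PD-1 ligands were higher. PD-L1 (CD274) went from 0.10, 0.12 and 0.00 to 1.69, 1.91 and 1.87 (1.75 ± 0.08), whereas PD-L2 (PDCD1LG2) was listed at 0 without and was at 5.19, 5.04 and 5.40 with doxycycline. CD276 (3.67 ± 0.15) and the adhesion molecule ICAM1 (2.24 ± 0.14) were higher. The signal that restrains phagocytes, CD47, was lower (3.33, 3.69 and 3.52 against 1.53, 1.50 and 1.61, a difference of -1.97 ± 0.10), as was NCR3LG1, the ligand of NKp30 (-2.19 ± 0.09).

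Death receptors and their effectors were higher, 11 of 17 tested, with NLRP1 lower (-1.36 ± 0.18). The TRAIL receptor TNFRSF10A went from 1.53, 1.69 and 1.11 to 6.21, 6.17 and 6.12 (4.72 ± 0.13), and the necroptosis effector MLKL (4.13 ± 0.13), FAS (3.74 ± 0.11), TNFRSF1A (3.40 ± 0.07) and CASP8 (2.48 ± 0.08) were higher, while its upstream kinase RIPK3 was listed at 0 with doxycycline and at most 0.05 without. Of 13 BCL2 family genes tested, 3 were higher and 6 lower. The share higher was near the 21.4% of all genes tested, and the share lower was above 20.4%. BCL2 went from 6.17, 5.89 and 5.79 to 3.05, 2.87 and 2.38 (-3.18 ± 0.17) and BCL2L1 fell by 2.08 ± 0.07, as did the death-promoting HRK (by 2.91 ± 0.11) and PMAIP1 (by 2.58 ± 0.10), whereas BCL2L2 (2.03 ± 0.09) and BAK1 (1.52 ± 0.10) were higher and MCL1 (1.04 ± 0.06) was not called without library 49 (0.98). Among NF-kappaB genes, 6 of 14 were higher and none was lower, led by NFKB1 (2.80 ± 0.09) and BCL3 (2.39 ± 0.25), while RELA (0.58 ± 0.07) and NFKBIA (-0.30 ± 0.11) were not called. SERPING1, the inhibitor of the first complement step, went from 2.20, 1.34 and 0.85 to 7.31, 7.16 and 7.19 (5.76 ± 0.35).

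Proliferation genes differed little, with 6 higher, 6 lower and 30 not called of 42 (median 0.14). MKI67 was at 7.95, 7.86 and 7.91 without and 8.12, 8.14 and 8.08 with doxycycline (0.21 ± 0.06, chosen after its values were seen). CDC20 (2.33 ± 0.15) and PLK1 (1.26 ± 0.09), which act in mitosis, were higher, and E2F1 (-2.09 ± 0.05), CCNE2 (-1.91 ± 0.09) and the replication helicase subunit MCM3 (-1.25 ± 0.05) were lower. Of the cyclin-dependent kinase inhibitors, CDKN2B (2.53 ± 0.14) was higher, and CDKN2D (-2.35 ± 0.07), CDKN1A (-2.09 ± 0.23) and CDKN1C (-1.74 ± 0.09) were lower. EZH2, the histone methyltransferase that silences class I genes in many SCLC cells, went from 5.56, 5.59 and 5.71 to 4.50, 4.52 and 4.61 (-1.08 ± 0.06).

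Of 27 genes of glycolysis and the hypoxia response, 10 were lower, 4 higher and 13 not called (median -0.70). The carbonic anhydrase CA9 went from 6.89, 6.59 and 7.11 to 1.10, 1.87 and 1.87 (-5.24 ± 0.25), and NDRG1 (-4.76 ± 0.35), BNIP3 (-3.24 ± 0.19) and the lactate exporter SLC16A3 (-3.24 ± 0.21) were lower, while EPAS1 (HIF-2 alpha) went from 1.53, 1.36 and 1.85 to 6.47, 6.46 and 6.44 (4.88 ± 0.12). Sterol and fatty acid synthesis genes were mostly not called (18 of 21). In the integrated stress response 3 of 17 were higher and 2 lower, with NUPR1 the largest rise (4.86 ± 0.26) and ATF4 (-0.29 ± 0.09) not called. Both shares were below those of all genes tested (21.4% higher and 20.4% lower).

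Imprinted genes of the fetal growth network were lower for 8 of 13 tested and higher for 3 (median -2.40). MEST went from 8.27, 8.43 and 8.64 to 1.26, 1.52 and 1.44 (-7.04 ± 0.10), MEG3 from 6.96, 7.24 and 7.21 to 2.08, 1.82 and 2.01 (-5.16 ± 0.15), and H19 from 11.62, 11.42 and 12.87 to 7.41, 7.36 and 7.43 (-4.57 ± 0.38). NDN (3.67 ± 0.17), PHLDA2 (2.16 ± 0.08) and PLAGL1 (1.46 ± 0.07) were higher. Of 21 Wnt genes tested, 7 were higher, led by TCF7L1 (2.69 ± 0.11), and 6 lower, led by WNT7B (-3.84 ± 0.08). Among all genes tested, 21.4% were higher and 20.4% lower. The ribosomal paralogue RPL39L went from 4.11, 1.65 and 2.24 to 7.30, 7.21 and 7.29 (4.60 ± 0.53, and 5.32 without library 49), and SLFN12 and SLFN13, listed at 0 without doxycycline, were at 1.34 to 1.68 and 1.78 to 3.15 with it, while SLFN11 reached at most 0.41 and was not tested.

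The largest falls over all genes, beside those given above, were those of the matricellular gene SMOC1 (11.97, 12.10 and 12.23 against 1.15, 0.00 and 1.13, a difference of -11.34 ± 0.27), the sulfotransferase CHST9 (-9.24 ± 0.25), XKR7 (-9.03 ± 0.26) and the synaptic protein CPLX2 (-8.89 ± 0.09). LINC00475 (9.75, 10.42 and 10.58) and NRSN1 (8.34, 8.40 and 8.43) were listed at 0 with doxycycline. L3MBTL4 was uneven within the dox group, at 10.58, 11.07 and 11.00 without and at 0.00, 5.34 and 0.00 with doxycycline, so that its difference was -10.88 without library 53 and -8.21 without library 52 or 54. GDF15 (-3.50 ± 0.24), PTGER2 (7.52 ± 0.28) and the protease CTSL (6.85, 0.00 and 0.00 against 10.30, 10.43 and 10.32, a difference of 8.06, 10.35 without library 49 and 6.92 without 50 or 51) were picked after their values were seen. In the parental libraries CTSL was at 4.55, 3.64 and 3.86, between the values of library 49 and of libraries 50 and 51.

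Marker lists of other cell types gave the following. Of 12 leukocyte markers only CD14 passed the filter (3.55, 3.00 and 3.28 against 4.74, 4.88 and 4.74, a difference of 1.51 ± 0.12, but 0.58 and not called against the parental libraries), and PTPRC, CD3E and TYROBP were at 0.38 or less in all 6 libraries. The mean level of the whole leukocyte list was 0.351 to 0.442 without and 0.551 to 0.592 with doxycycline. Of 7 endothelial markers, ESAM (4.06 ± 0.06) was higher and CLDN5, at 1.24 to 2.12, was listed at 0 with doxycycline, TEK was listed at 0 without and was at 2.60, 2.64 and 2.34 with it, and CDH5, VWF, KDR and TIE1 were at 0.47 or less. The list averaged 0.271 to 0.373 without and 1.02 to 1.08 with doxycycline. Of 8 fibroblast markers tested, 7 were higher, among them LUM (5.28 ± 0.10), DCN (3.70 ± 0.06), THY1 (3.46 ± 0.12) and FAP (1.72 ± 0.06), with PDGFRA at 0.15 or less and PDPN at 0.44 or less, and the list averaged 1.16 to 1.35 without and 5.60 to 5.62 with doxycycline. Fibroblast and mesenchymal lists overlap in their genes, and a part of other cells in these values was not tested. Among RNA-quality genes, the nuclear RNAs MALAT1 (10.66, 10.49 and 10.25 against 8.03, 7.89 and 8.04, a difference of -2.48 ± 0.19) and NEAT1 (-1.52 ± 0.19, but -0.70 and not called against the parental libraries) and 3 histone genes were lower and H2AFZ was higher, of 10 tested, and the part of RNA quality in the other results was not tested.

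The same vector was induced in 2 other SCLC lines of the series, H82 and H524, each with 3 no_dox and 3 dox libraries, and no library is shared between lines. The figure legends of the study list a longer induction for H69 than for H82 and H524. The relative depth was 0.721 to 0.856 in these H69 libraries, 1.03 to 1.35 in H82 and 0.954 to 1.52 in H524. The parts of induction time and depth in the differences between lines were not tested. In a joint limma fit to 27 libraries and 15100 genes, the response of H69 differed from that of H82 for 6647 genes (44.0%), of which 3379 (22.4%) were more positive and 3268 (21.6%) more negative in H69, and from that of H524 for 5654 genes (37.4%), of which 2726 (18.1%) were more positive and 2928 (19.4%) more negative. The balance against H524 turned to 3028 more positive and 2680 more negative after quantile normalization and to 3120 and 2686 after median centring. Genes called higher numbered 2932 in H69 (19.4%), 2028 in H82 (13.4%) and 1596 in H524 (10.6%) in this fit, and genes called lower 2754 (18.2%), 1709 (11.3%) and 1024 (6.78%). Of the H69 rises, 816 were also rises in H82 (27.8% of the H69 and 40.2% of the H82 list) and 809 in H524 (27.6% and 50.7%), and 503 (17.2% of the H69 list) in both. Of the H69 falls, 517 were shared with H82 (18.8% and 30.3%), 527 with H524 (19.1% and 51.5%) and 247 (8.97%) with both. In opposite directions, 240 H69 rises (8.19%) were falls in H82 and 75 (2.56%) in H524, and 310 H69 falls (11.3%) were rises in H82 and 168 (6.1%) in H524, shares that lie below those of all genes called in that direction in H82 and H524. Centring each library on its median moved the median difference in response over all genes from 0.05 to 0.14 against H82 and from 0.04 to 0.15 against H524, so differences between lines are read relative to shifts of this size.

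NOTCH1 rose by 7.60 ± 0.26 in H69, 3.70 ± 0.26 in H82 and 6.86 ± 0.26 in H524 in this fit, more in H69 than in H82 (by 3.91, adjusted P = 7.2e-09), while the difference of 0.74 from H524 was not called (adjusted P = 0.091). HES5 rose more in H69 (4.65 ± 0.21) than in H82 (2.99, by 1.66) and H524 (2.96, by 1.69). HES1 showed the opposite, with 0.52 ± 0.33 in H69 against 4.18 ± 0.33 in H82 and 4.11 ± 0.33 in H524, and both differences were called (adjusted P = 1e-06 and 1.9e-06). Without doxycycline HES1 averaged 3.27 in H69, 1.29 in H82 and 0.56 in H524, and with it 3.79, 5.47 and 4.66. REST showed the reverse of HES1, since it started lower in H69 (0.49, against 4.64 and 3.26) and rose more (5.02 ± 0.32 against 1.67 ± 0.32 and 2.72 ± 0.32), so that the 3 lines with doxycycline held 5.51, 6.31 and 5.98.

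Of 30 neuroendocrine factors in the joint fit, 24 were lower in H69, 12 in H82 and 15 in H524, and the response was more negative in H69 for 20 against H82 and for 21 against H524. Of 45 effectors, 36 were lower in H69, 26 in H82 and 20 in H524, and the response was more negative in H69 for 25 against H82 and for 36 against H524. INSM1 fell more in H69 (-8.34 ± 0.33) than in H82 (-3.18 ± 0.33) and H524 (-3.03 ± 0.33). NEUROD1, the factor both of those lines are known for, went from 13.81 to 4.72 in H82 and from 14.01 to 9.64 in H524, and the difference in response from H69 was called for H524 but not for H82. SYP fell more in H82 (-5.97 ± 0.17) and less in H524 (-1.32 ± 0.17) than in H69 (-3.58 ± 0.17). MYC rose in H69 (3.78 ± 0.86) and fell in H82 (-2.65 ± 0.86), and the value in H524 was -0.97 ± 0.86 (not called), with both differences from H69 called (6.43 and 4.75, or 8.28 and 6.60 without library 49, 5.58 and 3.90 without 50, and 5.43 and 3.75 without 51). MYCN fell in H69 (-5.53 ± 0.18), and its values in H82 (0.70 ± 0.18) and H524 (-0.15 ± 0.18) were not called. Both differences from H69 were called, but MYCN averaged 1.24 or less in the H82 and H524 groups.

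Of the 43 mesenchymal genes, 38 were higher in H69, 34 in H82 and 28 in H524. ACTA2 rose by 11.30 ± 0.17 in H69, 9.80 ± 0.17 in H82 and 9.50 ± 0.17 in H524, while VIM, already at 5.25 and 4.27 in H82 and H524 without doxycycline, rose by 1.23 and 2.55 there against 8.62 in H69. Of the 20 epithelial genes, 15 were lower in H69 against 1 in H82 and 3 in H524, and 9 were higher in H82. EPCAM fell by 4.02 ± 0.31 in H69, and its values in H82 (0.24 ± 0.31) and H524 (-0.35 ± 0.31) were not called, with both differences called. Cell-cycle genes, of which 6 of 42 were lower in H69, were lower for 24 in H82 and 6 in H524. The integrated stress response was higher for 12 of 17 genes in H82 and 14 in H524 against 3 in H69.

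HLA-B rose by 7.19 ± 0.36 in H69, 4.77 ± 0.36 in H82 and 5.49 ± 0.36 in H524, more in H69 than in either (adjusted P = 0.00036 and 0.0083), and B2M rose by 2.78, 2.50 and 2.16, with neither difference called (adjusted P = 0.62 and 0.27; differences 0.29 and 0.62). STING1 rose more in H69 (2.55 ± 0.37) than in H82 (1.10 ± 0.37, difference called with adjusted P = 0.023) and H524 (0.77 ± 0.37, not called in that line, difference called with adjusted P = 0.0076). CD44, not called in H69, rose by 2.60 in H82 and 1.17 in H524, and both differences were called, that from H524 no longer without library 24 (-1.02). Without library 23 the differences from H524 were 1.01 for both HLA-B and STING1 and were still called. Counts called in 1 line and not in another compare thresholds and not responses, apart from the differences tested here.

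**Figure D5:**
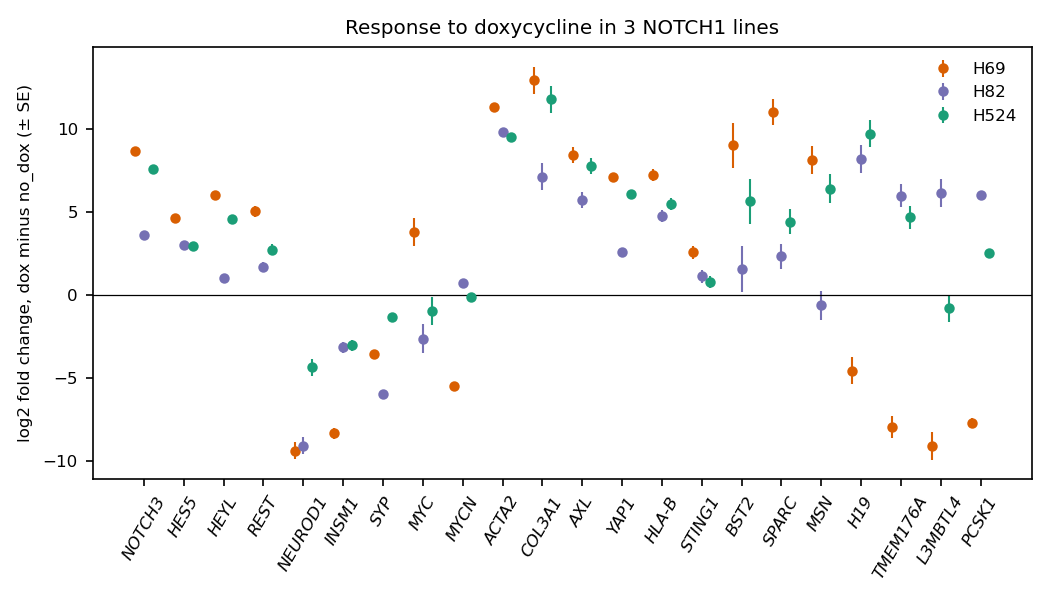
Difference between dox and no_dox libraries, in log2 units with its SE, for selected genes in H69 (orange), H82 (purple) and H524 (green), from the joint fit to 27 libraries. HES5, ACTA2, AXL and HLA-B rise in all 3 lines, whereas H19, TMEM176A, L3MBTL4 and PCSK1 fall in H69 (-4.57, -7.95, -9.10 and -7.71) and rise in H82.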

How the data were processed

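Poly(A) RNA of the 6 H69 libraries was sequenced as stranded paired-end libraries. Per the labels and the methods of the study, the authors trimmed reads with Cutadapt, aligned them to hg19 with STAR, estimated gene abundances with RSEM, scaled libraries by the edgeR trimmed mean of M-values and deposited log2(RPKM + 1) values. Tool versions and the use of strand in counting are not given in the sources used here. The deposited log2 values are not counts, so limma (version 3.58.1, R 4.3.3, empirical Bayes with a variance trend) was used on them as deposited, in place of the voom weights that counts would allow. The fit held the 9 H69 libraries, and the comparisons between lines held 27 libraries of H69, H82 and H524. A gene was tested when 3 or more libraries reached a value of 1. Calls needed a Benjamini-Hochberg adjusted P value below 0.05 over all genes tested and a difference of at least 1. The scripts were tested on simulated data. Python 3.11.15, pandas 2.3.3 and numpy 2.4.6 were used for the summaries.

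The table holds no counts, so depth was read only as relative library size from the steps between low values. Libraries were grouped by their titles, and none was left out. The mouse table of the series was not used. The 48 gene lists held 994 entries, of which 10 were not found in the table. The lists, the members and the tests were chosen with earlier results of these data known. Genes were named by rule, namely every member of lists of up to 10, up to 4 called genes with the largest change each way in longer lists, called members that moved against their list, the 12 largest rises and 12 largest falls among called genes with a mean of at least 5 and no overlap, the 5 largest differences each way between lines, and genes the study names. Not every gene that the rule allows is named. All other genes, including the uncalled members of longer lists, were chosen after their values were seen. Locations are from GENCODE (GRCh37) and sequences from RefSeq (GRCh38.p14). Of the 13580 genes tested, 10087 were matched to a RefSeq promoter by symbol. Alternatives were another filter, pseudocount (0.1), scaling, variance model, set of libraries and control group, and each library left out in turn. Where a gene is listed at 0 in every library of a group, no fold change is given, although its fitted value enters list medians. One or more genes are not reported here.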

Additional observations from a re-analysis of the deposited data

Results flagged for a closer look

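The response to doxycycline differed between H69 and H82 for 6647 genes and between H69 and H524 for 5654 genes by limma's test of the interaction, and the largest of these differences are given as values. The scale is log2(RPKM + 1), and means are over 3 libraries a group.

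Against H82, several genes rose in H69 and did not in H82. SUSD2 averaged 0.74 without and 6.60 with doxycycline in H69 and 4.60 and 1.48 in H82 (difference in response 8.99 ± 0.80, adjusted P = 4e-09). The cancer-testis gene CTAG2 averaged 0.02 and 5.59 in H69 and 2.97 and 0.16 in H82 (8.39 ± 0.58). MSN averaged 3.60 and 11.71 in H69 and 11.57 and 10.93 in H82 (8.75 ± 1.21), and SPARC, which rose in both lines, 1.67 and 12.68 against 8.77 and 11.08 (8.70 ± 1.08). Library 49 raised the no_dox mean of both, and the differences were 10.52 for MSN and 10.24 for SPARC without it, 7.74 and 7.86 without library 50, and 7.98 for both without library 51. IL17B was listed at 0 in the no_dox libraries of H69 and averaged 9.33 with doxycycline, against 6.08 and 5.22 in H82, and the fitted difference of 10.19 on this scale (10.79 without library 4 and 9.56 without library 5) is not a fold change.

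The opposite pattern, a fall in H69 and a rise in H82, was seen for the prohormone convertase PCSK1 (9.06 to 1.35 against 0.82 to 6.81, a difference of -13.70 ± 0.38), the imprinted genes MEST (8.44 to 1.41 against 0.42 to 6.66, -13.28 ± 0.24) and H19 (11.97 to 7.40 against 3.26 to 11.43, -12.74 ± 1.17, with -11.77 without library 4 and -13.34 without library 8), and the membrane protein TMEM176A (8.63 to 0.68 against 1.65 to 7.62, -13.92 ± 0.96). L3MBTL4 averaged 10.88 and 1.78 in H69, was listed at 0 in the no_dox libraries of H82 and averaged 6.11 with doxycycline there, and the fitted difference of -15.22 (-17.00 without library 53 and -14.33 without 52 or 54) is likewise not a fold change.

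Against H524, EPHA3 averaged 1.42 and 11.79 in H69 and 5.13 and 5.23 in H524 (10.27 ± 1.60). Library 49 alone made up the no_dox mean of EPHA3 in H69, and the difference was 11.68 without it and 9.56 without library 50 or 51. CLEC11A (8.60 ± 0.49), DCBLD2 (7.92 ± 0.66), LPPR4 (7.85 ± 0.57) and FSTL1 (7.60 ± 0.92) also differed in the positive direction, and of these only FSTL1 also rose in H524, from 6.25 to 8.86. Without library 49 the differences were 8.76 for DCBLD2 and 8.29 for FSTL1, and without library 22 that of FSTL1 was 8.63. H19 rose in H524 from 3.29 to 12.99, which made a difference of -14.27 ± 1.17, as did TMEM176A (2.53 to 7.19, -12.61 ± 0.96) and GDF15, a stress-induced cytokine (3.42 to 13.56 against 12.54 to 9.03 in H69, -13.64 ± 2.16). ESRP1 fell in H69 from 9.72 to 1.23 and averaged 3.38 and 5.80 in H524 (-10.91 ± 0.70), and CHST9 fell from 9.59 to 0.35 and averaged 0.23 and 1.43 in H524 (-10.45 ± 1.10). Leaving out 1 H524 library gave -11.93 (library 22) and -15.54 (library 23) for GDF15, -15.00 (library 23) for H19, -13.39 (library 23) and -12.03 (library 24) for TMEM176A, and -9.82 (library 25) and -11.16 (library 26) for CHST9.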

How the results depend on the processing

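The counts of genes called kept within 1.5 times of the main count under every alternative run. For doxycycline against none in H69 they were 5734 without the filter, 6556 with a pseudocount of 0.1, 5513 after quantile normalization, 5668 after median centring, 5675 without the variance trend, 5649 with the 6 libraries alone, 5576 with parental libraries as controls (4864 of them shared with the main call) and 5574 to 5853 with 1 library left out. Differences from H82 numbered 6351 to 7546 over the alternatives and 6427 to 6725 with 1 library left out, and those from H524 5596 to 6524 and 5418 to 6145.

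Of 317 genes named and tested, 267 kept their direction and their side of the threshold in all alternatives and 50 did not in at least 1. Signs that turned belonged mostly to genes with differences near 0. After quantile normalization these were CPE (-0.0121), KDM1A (-0.0109), MKI67 (-0.0256), RCOR1 (-0.0206) and RUNX1T1 (0.0957), and after median centring RCOR1 (-0.0208). With parental controls they were BHLHE41 (0.90), CD44 (0.93), FST (0.0023), HES1 (-0.42), IRF1 (-0.67), ITGA2 (2.31), LOX (1.43), POU4F1 (-0.19), RCOR1 (-0.0336) and RUNX1T1 (0.17). With 1 library left out the values ran from -0.0273 to 0.42 for CCL2, from -0.38 to 0.0155 for MXI1 and from -0.0343 to 0.0322 for RCOR1. The cause was not tested. With parental controls, 16 further named genes lost their call, namely CD14 (0.58), COL7A1 (-0.16), EZH1 (-0.80), FOXJ1 (-0.97), GAS6 (0.07), H2AFZ (0.90), HDAC1 (0.91), ITGB8 (-0.64), JUN (-0.70), JUNB (0.82), MFNG (-0.71), NEAT1 (-0.70), PHF21A (-0.98), PSEN2 (0.66), SOCS3 (0.29) and TAPBP (0.31). Another 8 gained one, namely CAMK2B (-1.03), CCL2 (2.18), COL1A2 (3.95), MET (-2.87), MXD1 (-1.07), PLAUR (1.08), TIMP2 (1.37) and ZEB1 (1.34). In all, the differences of 83 named genes called against no_dox moved by over 1.5 times with parental controls. After quantile normalization, 8 named genes lost their call. They were FOXJ1 (-0.91), H2AFZ (0.86), HDAC1 (0.80), IFNGR2 (0.95), JUNB (0.96), LFNG (-0.98), MCL1 (0.93) and TAPBP (0.96). With a pseudocount of 0.1, 6 gained one, namely CAMK2B (-3.32), CHRNA5 (-1.08), MET (-1.29), MXD1 (-1.03), TCF4 (-1.93) and ZEB1 (1.24).

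No paired analysis was possible because library numbers run over the whole series and no pair of groups shares one. The lack of read counts limits the precision of genes with low values, and the 3 libraries a group limit all of them.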

Other observations

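Of 13 genes of chromatin regulation tested, 1 was higher, the methylcytosine oxidase TET3 (1.99 ± 0.08), 2 were lower, EZH1 (-1.06 ± 0.08) and EZH2 (-1.08 ± 0.06), and 10 were not called. Of 21 genes of sterol and fatty acid synthesis, the elongase ELOVL6 was higher (1.81 ± 0.10) and INSIG1 (-2.24 ± 0.13) and HMGCS1 (-1.61 ± 0.18) were lower. Of 9 complement genes tested, 6 were higher, led by SERPING1, and CFD was lower (-1.61 ± 0.09). Of 13 markers of lung epithelium 3 were tested, of which KRT5 was higher and FOXJ1, a factor of ciliated cells, was lower (-1.06 ± 0.14, and -0.94 and not called without library 51), while SFTPB, SCGB1A1 and MUC5AC were listed at 0 in all 6 libraries, and the list averaged 0.267 to 0.439 without and 0.641 to 0.685 with doxycycline.

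Of the factors that mark other SCLC subtypes, POU2F3, of the tuft-cell-like subtype, was at 0.00, 0.00 and 0.44 without and 0.26, 0.48 and 0.67 with doxycycline and was too low to be tested.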
